A study of Arabidopsis thaliana with 8 samples.

Results

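The ATG8 family of *Arabidopsis thaliana* was followed over the day in rosettes of the starchless *pgm* mutant. ATG8 is a small ubiquitin-like protein at the centre of autophagy, the route by which cells enclose parts of their own cytoplasm in a membrane and deliver them to the vacuole for recycling. The protease ATG4 trims the protein at its C terminus, the enzymes ATG7 and ATG3 carry it to the lipid phosphatidylethanolamine, and the lipid-bound form sits on the growing autophagosome, where cargo receptors dock. In leaves, autophagy is known to supply amino acids and respiratory substrate when sugar is short. Every gene whose symbol in the platform's gene table starts with ATG8 or APG8 was taken, which gave 9 genes with 1 probe set each, out of 22746 probe sets that are not array controls. They are *APG8A* (AT4G21980, also called ATG8A), *ATG8B* (AT4G04620), *ATG8C* (AT1G62040), *ATG8D* (AT2G05630), *ATG8E* (AT2G45170), *ATG8F* (AT4G16520), *ATG8G* (AT3G60640), *ATG8H* (AT3G06420) and *APG8H* (AT3G15580). The RefSeq table also lists *APG8H* as ATG8I, so *ATG8H* and *APG8H* are separate genes in spite of their names. In this plant ATG8A to ATG8D and ATG8E to ATG8G are known as related subgroups, while the proteins of AT3G06420 and AT3G15580 stand apart because they end at the glycine that ATG4 otherwise exposes.

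All 8 one-colour Affymetrix arrays carry RNA of the same genotype, the *pgm* mutant of plastidial phosphoglucomutase in the Col-0 background, which makes almost no leaf starch. The plants were between 5 and 6 weeks old, and each sample is powder pooled from 15 whole rosettes. The hours on the labels are 00h, 04h, 08h, 12h, 16h and 20h, with 2 arrays (A and B) at 00h and at 12h and 1 array (A) at the other 4 hours. A wild type is not analysed here, and the labels used here give no light period. They do not state that the lettered arrays of an hour hold different plants. Each p-value of a comparison with the hour as a factor then reflects the spread between arrays of the same hour alone, and that spread may be technical. The fits of 2 groups of arrays and of a 24 h curve, and the exact permutation tests, also take in differences between hours. Here 04h, 08h and 12h are called the day-side hours and 16h, 20h and 00h the night-side hours, each with 4 arrays. Where the hours are read in order, 00h is taken both to follow 20h and to come before 04h. The hours on the labels do not say which of these holds. In whole rosettes, fewer cells that express a gene and less RNA per cell cannot be told apart.

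Values are the deposited intensities, linear and scaled to the same trimmed mean of 100.01 on every array. The 00h A and 12h A arrays stood apart, with hybridisation controls (RNAs added before hybridisation) at 2.98 and 3.06 times the median array, against 0.833 to 1.02 on the 6 other arrays. The median intensity ran from 29.9 to 37.6 across arrays. Of the 6 leaf mesophyll markers listed, 5 have a named probe set, and the Rubisco activase gene *RCA* read between 2300 and 6705. None of the listed flower and senescence markers could be matched to a probe set by name. All 9 *ATG8* probe sets passed the filter on dim signals, which left 13648 probe sets, and their mean intensities lay between the 59.7th and the 98th percentile of all probe sets.

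**Figure D1:**
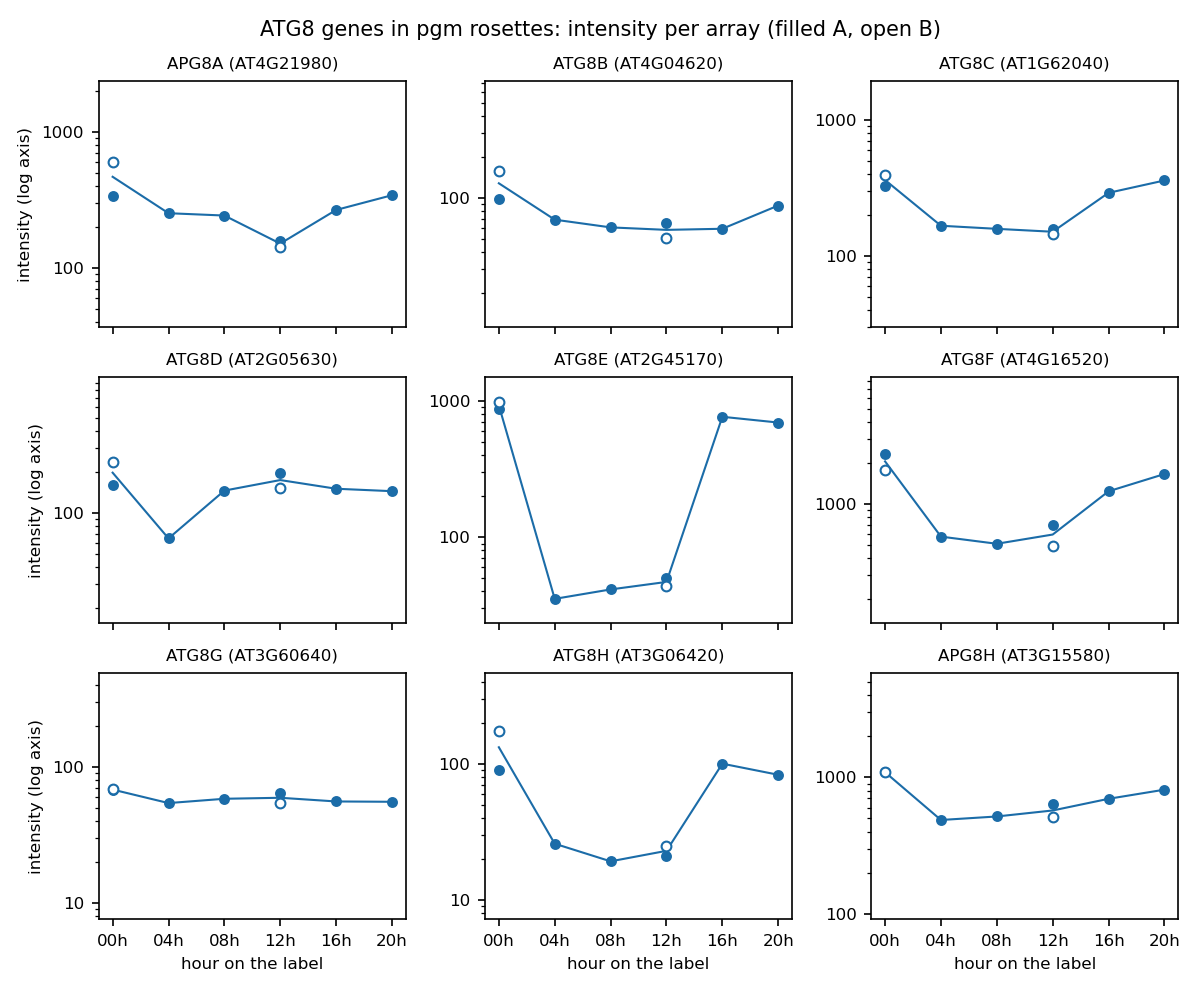
Intensity of the 9 *ATG8* genes on each of the 8 arrays (log axis, the same span of folds in each panel) against the hour on the label. Filled points are arrays lettered A, open points arrays lettered B, and the line joins hour means. *ATG8E* lies at 35.3 at 04h, against 869.2 and 989.2 at 00h, *ATG8G* stays between 54.4 and 68.9, and *ATG8D* is low at 04h with 65.3.

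Messages of 6 *ATG8* genes, *ATG8E*, *ATG8H*, *ATG8F*, *ATG8C*, *APG8H* and *APG8A*, were lower at the day-side hours than at the night-side hours. *ATG8E* had the largest difference of the 9, followed by *ATG8H* and *ATG8F*, whose mean night-side intensities were 4.92 and 3.07 times their day-side means. *ATG8B*, *ATG8D* and *ATG8G* did not pass this test. The difference is the mean of the 3 day-side hours minus the mean of the 3 night-side hours on the log2(intensity + 16) scale, which understates the change of dim probe sets. It comes from limma with the hour as a factor, with Benjamini-Hochberg adjustment over all 13648 probe sets and a threshold of 0.05. Of all tested probe sets 20.1% were lower at the day-side hours by this rule. The median difference was -0.688 over the 9 genes and 0.0438 over all tested probe sets, and all 9 estimates were negative. Scaling every array to 1 median lowers every day-minus-night difference, with a shift of -0.112 in the median of all probe sets, and the same number of *ATG8* genes, 6, passed there.

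*ATG8E* read 35.3 at 04h, 41.4 at 08h and 50.1 and 43.9 at 12h, against 766.8 at 16h, 695.6 at 20h and 869.2 and 989.2 at 00h. The highest day-side array (50.1) lay far below the lowest night-side array (695.6), and the mean of the night-side arrays was 19.5 times that of the day-side arrays. The log2 difference was -3.82 ± 0.154 (SE; limma adjusted p = 1.46e-07), and -3.88 ± 0.19 without the 00h A and 12h A arrays (limma with 3 arrays a side, adjusted p = 5.1e-05). The latter SE comes from the spread between the hours of a side, so the 2 SEs do not measure the same spread. In that comparison *ATG8F* (-1.53), *ATG8H* (-1.73), *ATG8C* (-1.07) and *APG8H* (-0.739) passed as well, so 5 of the 6 calls did not need the arrays that stood apart.

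*ATG8F*, of the same subgroup as *ATG8E*, read 575.7 at 04h, 510.1 at 08h and 704.0 and 488.5 at 12h, against 1238.8 at 16h, 1658.4 at 20h and 2317.0 and 1789.7 at 00h. The sides did not overlap, and the night-side signal was higher at 20h than at 16h and highest at 00h. Its log2 difference was -1.51 ± 0.206 (SE; limma adjusted p = 2.42e-04). *ATG8G*, the third of this subgroup, read between 54.4 and 64.2 on the day-side arrays and between 55.6 and 68.9 on the night-side arrays. Its sides overlapped and its 8 values kept within a narrow range, with a difference of -0.0453 and a 95% interval of -0.423 to 0.332. *ATG8G* was the dimmest of the 9 probe sets by mean, and the filter that left out the lowest 60% removed it.

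*ATG8H* read 26 at 04h, 19.3 at 08h and 21.2 and 24.9 at 12h, against 100.6 at 16h, 83.4 at 20h and 90.3 and 175.3 at 00h. The sides did not overlap, the day-side signals were dim, and the 2 arrays of 00h differed more from each other than 16h from 20h. Its log2 difference was -1.61 ± 0.22 (SE; limma adjusted p = 2.40e-04), and the size ran from -2.12 with a pseudocount of 1 to -0.946 with 64. *APG8H*, the other gene whose protein ends at the glycine, read 486.5 at 04h, 516.3 at 08h and 633.5 and 509.4 at 12h, against 696.1 at 16h, 812.2 at 20h and 1090.2 and 1091.8 at 00h. Its sides did not overlap either, with a step at each night-side hour up to 00h, and the difference was -0.688 ± 0.173 (SE; limma adjusted p = 0.00893).

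*ATG8C* read 166.8 at 04h, 158.3 at 08h and 156.6 and 144.8 at 12h, against 291.0 at 16h, 358.6 at 20h and 328.2 and 394.1 at 00h. The 4 day-side values were close together and all below the night-side values, with a log2 difference of -1.01 ± 0.156 (SE; limma adjusted p = 5.31e-04). *APG8A*, of the same subgroup, read 253.2 at 04h, 243.4 at 08h and 159.4 and 143.6 at 12h, against 267.5 at 16h, 343.2 at 20h and 338.0 and 599.3 at 00h. The sides did not overlap, but 04h and 08h lay just below 16h and the lowest arrays were those of 12h. Its difference was -0.675 ± 0.201 (SE; limma adjusted p = 0.0206). This call ended without the 00h A and 12h A arrays, where the spread is that between hours (-0.83 ± 0.331, limma adjusted p = 0.0882). It also ended without the filter on dim probe sets (limma adjusted p = 0.088).

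*ATG8B*, of the subgroup of *APG8A* and *ATG8C*, read 69.4 at 04h, 60.9 at 08h and 65.9 and 50.9 at 12h, against 59.5 at 16h, 88.1 at 20h and 98.7 and 158.0 at 00h. The sides overlapped because 16h still lay at the day-side level. Its difference was -0.397 with a 95% interval of -0.838 to 0.0433 (limma adjusted p = 0.132). *ATG8D* read 65.3 at 04h, 146.5 at 08h and 197.3 and 152.9 at 12h, against 151.2 at 16h, 145.1 at 20h and 159.8 and 236.9 at 00h. A single low array, that of 04h, set it apart, while 08h and 12h lay among the night-side values. Its difference was -0.393 with a 95% interval of -0.802 to 0.0159 (limma adjusted p = 0.11). The difference was -0.481 without the 00h A array and -0.306 without the 00h B array.

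For 6 of the 9 genes all day-side arrays lay below all night-side arrays, and 18.8% of tested probe sets did so. Markers of other tissue and of handling moved as well. *PYK10*, a root marker, read 89.3 to 134.4 on the day-side arrays and 113.7 to 300.0 on the night-side arrays, and was lower by -0.548 ± 0.154 (SE; limma adjusted p = 0.0157). *STZ*, listed as a touch-responsive gene, read 23.7 to 44.1 on the day-side arrays and 133.9 to 170.9 on the night-side arrays (-1.81 ± 0.193, limma adjusted p = 5.03e-05). Of the 3 handling markers *STZ* alone has a named probe set, as *PYK10* is the single root marker listed. Of the 5 mesophyll markers *LHCB4.3*, of a light-harvesting protein, was lower (-0.485 ± 0.169, limma adjusted p = 0.0402), while *LHCB4.1* (0.468), *LHCB4.2* (0.562), *PRK* (-0.467) and *RCA* (-0.259) did not pass. The actin 3' over 5' signal ratio, a sign of RNA quality, was 2.53 to 3.19 on the day-side arrays and 2.29 to 2.74 on the night-side arrays. The part of these in the *ATG8* differences was not tested. The 3 reference genes *PEX4*, *AT4G34270* and *AT2G28390* did not pass, with differences between -0.397 and 0.1. Even so, the day-side arrays of *AT4G34270* (105.5 to 130.9) all lay below its night-side arrays (154.4 to 177.3), while the sides of *PEX4* and *AT2G28390* overlapped.

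**Figure D2:**
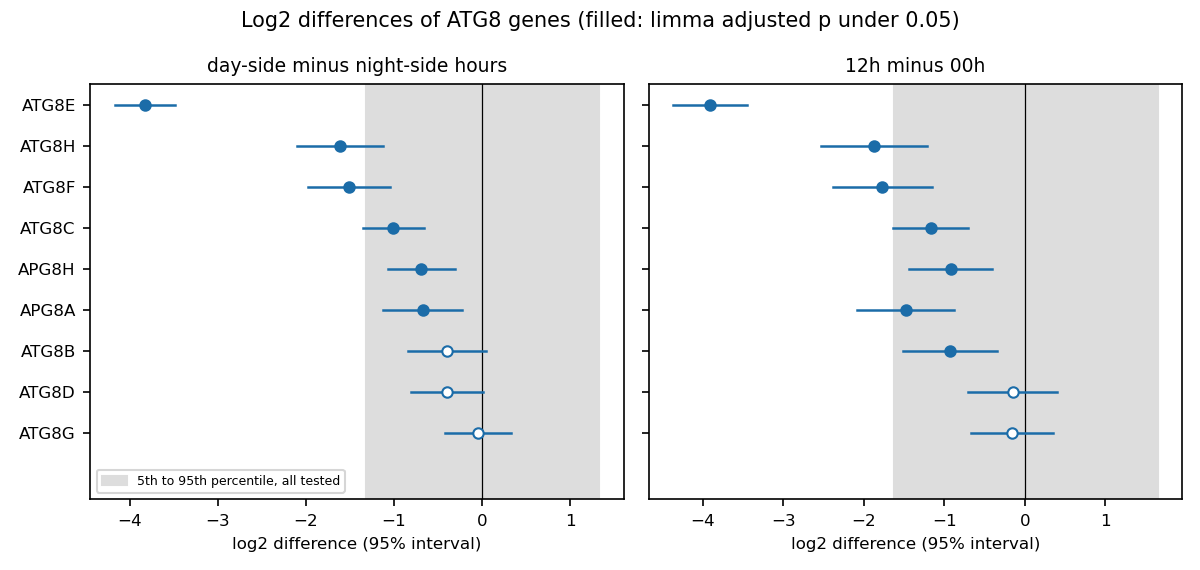
Log2 differences of the 9 *ATG8* genes, with 95% intervals from limma, for day-side minus night-side hours (left) and for 12h minus 00h (right). Filled points have a limma adjusted p under 0.05, and the grey band spans the 5th to the 95th percentile of all 13648 tested probe sets. *ATG8E* lies at -3.82 and -3.91, far outside the band, and *ATG8G* lies at -0.0453 and -0.163.

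The hours 12h and 00h are the only ones with 2 arrays each. There 7 of the 9 genes were lower at 12h, where 18.8% of tested probe sets were lower by the same test. *ATG8B* joined the 6 above, with a mean of 58.4 ± 10.6 at 12h and 128.3 ± 41.9 at 00h (SD, 2 arrays for each hour). Its log2 difference was -0.932 ± 0.266 (limma adjusted p = 0.0177). *APG8A* differed more here than across the sides, with 151.5 ± 11.2 at 12h and 468.6 ± 185 at 00h and a difference of -1.48 ± 0.269 (limma adjusted p = 0.00164). *ATG8E* averaged 47 ± 4.38 at 12h and 929.2 ± 84.9 at 00h, and the difference was -3.91 ± 0.207 (limma adjusted p = 1.40e-06). For *ATG8D* (-0.152, 95% interval -0.701 to 0.397) and *ATG8G* (-0.163, 95% interval -0.669 to 0.344) the test was not passed. The 2 arrays of 12h lay below both of 00h for 8 of the 9 genes, all but *ATG8D*, as for 33% of tested probe sets. In this comparison *PYK10* differed by -1.11 ± 0.206 (limma adjusted p = 0.00183), a larger difference than across the sides, and *STZ* by -1.68 ± 0.259 (limma adjusted p = 6.33e-04). The actin 3' over 5' ratio was 3.107 and 3.19 on the 12h arrays, the highest of all arrays, and 2.689 and 2.74 on the 00h arrays. The part of these in the *ATG8* differences was not tested. Of the mesophyll markers *LHCB4.2* was lower at 12h (-0.842 ± 0.298, limma adjusted p = 0.0449). The reference genes *PEX4* (-0.415 ± 0.218), *AT4G34270* (-0.463 ± 0.215) and *AT2G28390* (0.0882 ± 0.244) did not pass. Even so, both arrays of 12h lay below both of 00h for *PEX4* and *AT4G34270*, as for 33% of tested probe sets, while those of *AT2G28390* overlapped. Without the 00h B array *ATG8B* no longer passed (-0.632, limma adjusted p = 0.153), and without the 12h B array neither *ATG8B* (-0.787, 0.0678) nor *APG8H* (-0.769, 0.0764) did. *ATG8B* also failed without the filter on dim probe sets (limma adjusted p = 0.0732).

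The 00h A and 12h A arrays with high hybridisation controls form a pair of their own, so 12h minus 00h can be taken within it and within the B arrays. *ATG8E* differed by -3.74 in the A pair and -4.07 in the B pair, *ATG8F* by -1.7 and -1.84, and *ATG8C* by -0.996 and -1.35. The gap between pairs was wider for *APG8A*, at -1.01 in the A pair and -1.95 in the B pair, and for *ATG8B*, at -0.486 and -1.38. *ATG8H* differed by -1.51 and -2.23 and *APG8H* by -0.768 and -1.08. In each of these 7 genes both pairs were negative and the A pair was the smaller. *ATG8D* was higher at 12h in the A pair (0.279) and lower in the B pair (-0.582), and *ATG8G* had -0.0633 and -0.262.

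**Figure D3:**
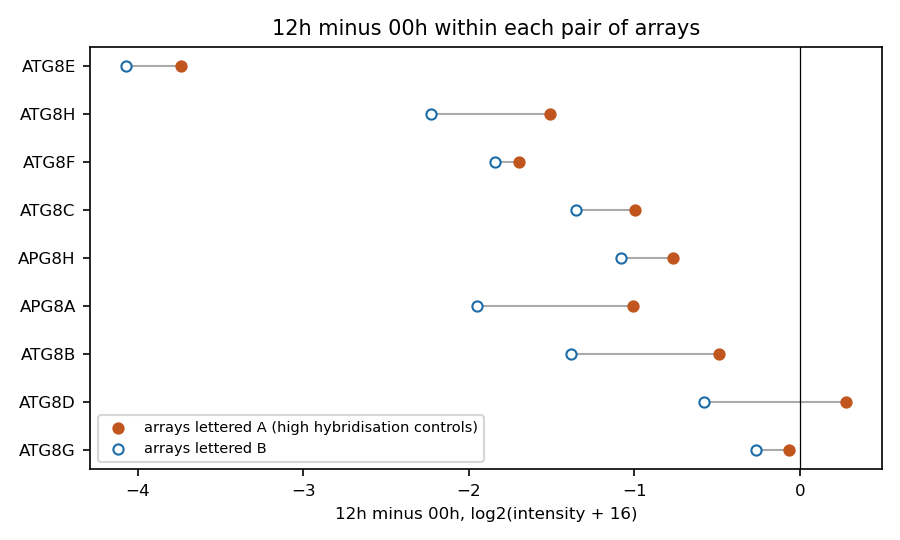
Difference 12h minus 00h in log2(intensity + 16) for each *ATG8* gene, within the arrays lettered A (filled, high hybridisation controls) and within those lettered B (open). A grey line joins the 2 values of a gene, which are closest for *ATG8F* (-1.7 and -1.84) and farthest apart for *APG8A* (-1.01 and -1.95), and *ATG8D* has values on both sides of 0.

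For the single array of 04h against 00h all 9 estimates were negative. The median difference was -1.14 over the 9 genes and 0.0984 over all tested probe sets. The test was passed by 6 of the 9 genes, *ATG8E*, *ATG8F*, *ATG8H*, *ATG8D*, *APG8H* and *ATG8C*, where 11.6% of tested probe sets were lower. *ATG8E* differed by -4.20 ± 0.253 (SE; limma adjusted p = 8.19e-06) from the single 04h array. *ATG8D* passed at this step, with 65.3 at 04h and 198.4 ± 54.5 at 00h (SD over 2 arrays), a difference of -1.37 ± 0.302 (limma adjusted p = 0.00793). *APG8A* (-0.794 ± 0.33) and *ATG8B* (-0.726 ± 0.325) did not pass, with limma adjusted p = 0.103 and 0.127. Their differences were -1.19 and -1.03 without the 00h A array, and -0.395 and -0.426 without the 00h B array. *APG8A* passed with every array scaled to 1 median (-1.08, limma adjusted p = 0.0406). Without the 00h B array *ATG8C* did not pass (-0.913, limma adjusted p = 0.0501), and without the filter on dim probe sets neither *ATG8D* (0.0508) nor *ATG8H* (0.0593) did. Between 12h and 04h no *ATG8* gene passed by limma, where 2.79% of tested probe sets differed. *ATG8D* alone had an unadjusted limma p under 0.05, as did 14.9% of tested probe sets. The largest estimate was that of *ATG8D*, higher at 12h than at 04h by 1.22 ± 0.302 (limma adjusted p = 0.0649). It stayed at 1.22 without either array of 00h, which alters only the spread, and was 1.39 without the 12h B array and 1.05 without the 12h A array. *APG8A* had the lowest estimate (-0.686 ± 0.33, limma adjusted p = 0.37).

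At 16h, the first hour after 12h, *ATG8E* and *ATG8H* were higher again and the other 7 genes did not pass. By this test 6.88% of tested probe sets were higher at 16h. *ATG8E* rose by 3.64 ± 0.253 log2 units (SE; limma adjusted p = 3.13e-05) and *ATG8H* by 1.58 ± 0.362 (limma adjusted p = 0.0214, and 0.141 without the filter on dim probe sets). *ATG8F* (1.06 ± 0.338, limma adjusted p = 0.0743) and *ATG8C* (0.882 ± 0.256, limma adjusted p = 0.0527) lay close to the threshold. Both passed without the 00h A array (*ATG8F* 0.0296, *ATG8C* 0.0367) and without the 00h B array (0.0305 and 0.0362), which leave the differences as they are and alter only the spread. *ATG8B* (0.0285), *ATG8G* (-0.0677) and *ATG8D* (-0.183) had estimates near 0. The direction of these 3 was not stable for *ATG8B*, which was -0.00852 with every array scaled to 1 median, and for *ATG8G*, which was 0.0222 without the 12h A array.

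Between 16h and 00h all 9 estimates were positive, between 0.23 and 0.904, and none passed the limma threshold. By this test 4.22% of all tested probe sets differed. At an unadjusted limma p under 0.05, a rule by which 7.02% of tested probe sets were higher at 00h, *ATG8B* (0.904 ± 0.325) and *APG8H* (0.637 ± 0.284) were reached. The 00h mean was 2.16 times the 16h signal for *ATG8B*, 1.75 times for *APG8A*, 1.66 times for *ATG8F* and 1.57 times for *APG8H*, and 1.21 times for *ATG8E*. Without the 00h A array the differences of *APG8A* and *ATG8B* were 1.12 and 1.2. Scaling every array to 1 median moves the median of all probe sets by 0.2 in this comparison, and no *ATG8* gene passed there either.

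A 24 h cosine curve was also fitted to all 8 arrays, as 1 value for the course over the day. A gene is called rhythmic when this curve passes the limma F test. The hours cover a single day, so whether the course recurs was not tested. Of the 9 genes 7 were rhythmic, beside 41.2% of tested probe sets. The amplitude, from mid-level to peak of the fitted curve, was 2.67 ± 0.339 log2 units for *ATG8E* (SE; limma adjusted p = 6.58e-04), 1.14 ± 0.203 for *ATG8H* and 1.10 ± 0.165 for *ATG8F*. It was 0.735 ± 0.117 for *ATG8C*, 0.651 ± 0.137 for *APG8A*, 0.505 ± 0.141 for *APG8H* and 0.441 ± 0.122 for *ATG8B*. The fitted peak was at 20.3 ± 0.446 h for *ATG8E*, 20.7 ± 0.658 h for *ATG8H*, 20.9 ± 0.602 h for *ATG8C* and 20.9 ± 0.565 h for *ATG8F*. Peaks of *APG8H* (21.3 ± 1.11 h), *APG8A* (23.1 ± 1.01 h) and *ATG8B* (23.3 ± 1.34 h) came later on the curve, and the differences between peaks were not tested. A peak of the fitted curve need not be the hour of highest signal. The 20h array was the lowest night-side array of *ATG8E* (695.6) and *ATG8H* (83.4). *ATG8F* (2317.0) and *ATG8C* (394.1) read highest on a 00h array. *APG8H* and *ATG8B* lost the call without the 00h A, the 00h B or the 12h B array, with limma adjusted p between 0.0662 and 0.117. They also lost it without the filter on dim probe sets (0.0636 and 0.0751).

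Whether 2 paralogues differed in their day-minus-night difference was tested for all 36 pairs with an exact permutation test over the 8 arrays (70 splits, two-sided, smallest possible p = 0.0286). The value tested was the log2 difference of 2 genes on the same array, averaged over the 4 arrays of each side. The 2 arrays of 00h and of 12h thus count separately here, as if independent, though the spread between them may be technical. The exact p-values may then be too small. The limma differences above average over hours instead, so a pair's value is not the gap between its limma differences. For *ATG8B* minus *ATG8D*, whose limma differences are -0.397 and -0.393, it was -0.198 (exact p = 0.571). *ATG8E* differed from each of the 8 other genes by between 2.17 and 3.77 log2 units, each at the smallest possible p. Of the 36 pairs 20 reached this p, and none passed after Benjamini-Hochberg adjustment over the 36, with a lowest exact adjusted p = 0.0514. With every array scaled to 1 median, 21 pairs reached the smallest p, which put them at an exact adjusted p = 0.049. With 70 splits a pair can pass after adjustment only if many others also reach the smallest p, whatever its size. The adjusted values therefore cannot decide single pairs. *ATG8F* minus *ATG8H* was 0.104 (exact p = 0.714), the smallest in size of the 36 on this array-averaged scale. *ATG8F* minus *ATG8G* was -1.5 within their subgroup, and *APG8H* minus *ATG8H* was 0.93, both at the smallest p. Among the ATG8A to ATG8D genes no pair reached it, with *ATG8B* and *ATG8C* closest (0.519, exact p = 0.0571).

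**Figure D4:**
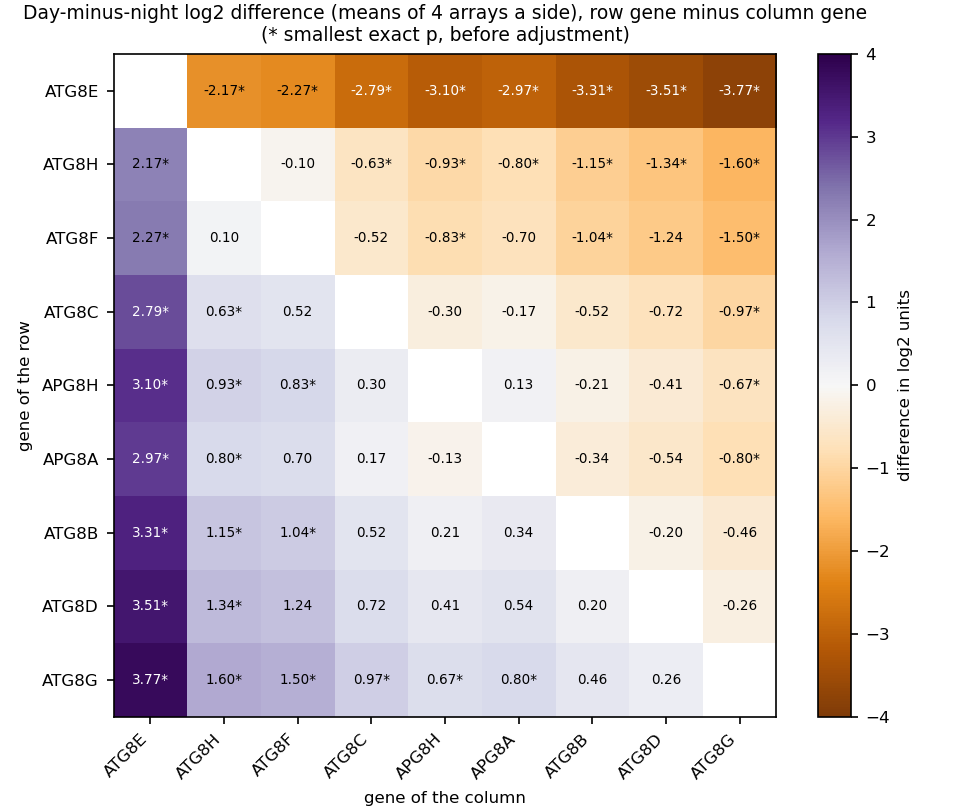
Difference between 2 *ATG8* genes in their day-minus-night log2 difference, taken between means of the 4 arrays of each side, row gene minus column gene, with genes ordered by their limma difference. An asterisk marks the smallest exact p of 0.0286 before adjustment, with the 2 arrays of an hour counted as if independent. The row of *ATG8E* runs from -2.17 against *ATG8H* to -3.77 against *ATG8G*.

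The shape of the course was shared by some paralogues. Over the 6 hour means on the log2 scale, Pearson's r was 0.986 between *ATG8E* and *ATG8H*, 0.986 between *ATG8C* and *ATG8F*, 0.976 between *ATG8C* and *ATG8E* and 0.968 between *ATG8E* and *ATG8F*. *APG8H* followed *ATG8F* at 0.956, and *APG8A* followed *ATG8B* at 0.869. *ATG8D* had its lowest r with *APG8A* (0.147) and its highest with *ATG8G* (0.661). These are descriptions of 6 points that share arrays and scaling.

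Outside the family, the probe sets most like each *ATG8* gene were found by the same r over 6 hour means, among 7327 tested probe sets with 1 gene. Of the 7327 probe sets 1057 had an r over 0.9 with *ATG8C*, 1015 with *ATG8F*, 867 with *ATG8E*, 832 with *ATG8H* and 586 with *APG8H*. There were 217 with *APG8A*, close to the 188 with *ATG8B*, and 36 with *ATG8D* and 22 with *ATG8G*. The 3 most like *ATG8E* were *AT2G25735* (0.9992), *AT5G19120* (0.9988) and *AT1G32460* (0.9979). Of these *AT5G19120* read 28.3 at 04h, 32.4 at 08h and 34.6 and 54.1 at 12h, against 1555.3 at 16h, 1758.4 at 20h and 1978.8 and 1986.6 at 00h. For *ATG8C* they were *AT1G03610*, *AT4G26400* and *AT3G61260*, for *ATG8F* *AT5G04910*, *AT3G47610* and *AT2G04690*, and for *ATG8H* *ATGP4*, *AT3G50560* and *AT4G21870*, each at 0.9946 or more. *APG8H* was most like *AT3G19900*, *AtSec20* and *AT2G01060*, *APG8A* most like *AT5G14680*, *AT2G20550* and *AT5G23460*, and *ATG8B* most like *AT3G60910*, *AT4G30630* and *AT5G22875*. *ATG8D* was most like *AT3G50210* (0.9903), *YAB5* (0.9764), a gene of the YABBY family of leaf polarity factors, and *AT5G42330* (0.9705). *YAB5* had the same low 04h array, with 38.0 there and between 61.7 and 77.3 on the 7 other arrays. *ATG8G* was most like *rpl32* (0.9710), of a chloroplast ribosomal protein, *AT2G43640* and *AT4G15940*. An r takes no account of the size of a change. *ATG8G* passed no limma test and read between 54.4 and 68.9, while *rpl32* read between 765.3 and 1702.1.

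The rest of the autophagy machinery could be followed in part. Of 38 other loci listed as autophagy genes, 11 could be matched to a probe set by name, of which 10 passed the filter. At the day-side hours 3 of the 10 were lower and 0 higher, with a median difference of -0.343, where 20.1% of tested probe sets were lower and 23.3% higher. *AT5G50230* read 95.4 at 04h, 85.4 at 08h and 73.8 and 87.9 at 12h, against 172.5 at 16h, 184.3 at 20h and 199.6 and 199.7 at 00h (-0.967 ± 0.158, limma adjusted p = 7.65e-04). *AT1G49180* (-0.928 ± 0.174) read 24.8 to 37.5 on the day-side arrays and 64.5 to 82.2 on the night-side arrays. *AT5G66930*, listed as ATG101 and known as a subunit of the ATG1 kinase complex that starts autophagy, read 63.5 to 86.3 on the day-side arrays and 93.2 to 164.4 on the night-side arrays (-0.624 ± 0.176). The day-side arrays lay wholly below the night-side arrays for 5 of the 10, these 3 and *AT2G37840* and *AT1G77890*, which did not pass, beside 18.8% of tested probe sets. They lay wholly above for 1, *AT3G61960*, beside 20.7%. *ATG3*, of the enzyme that passes ATG8 to its lipid, read 108.7 to 135.2 on the day-side arrays and 132.8 to 173.6 on the night-side arrays and did not pass (-0.287 ± 0.17, limma adjusted p = 0.2). *AT3G61960* was the only tested gene of this list with a positive estimate (0.441 ± 0.191, limma adjusted p = 0.0881), and *AT1G77890*, *AT2G37840*, *AT3G53930*, *AT3G59950* and *AT4G34660* had estimates between -0.505 and -0.0484 and did not pass.

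**Figure D5:**
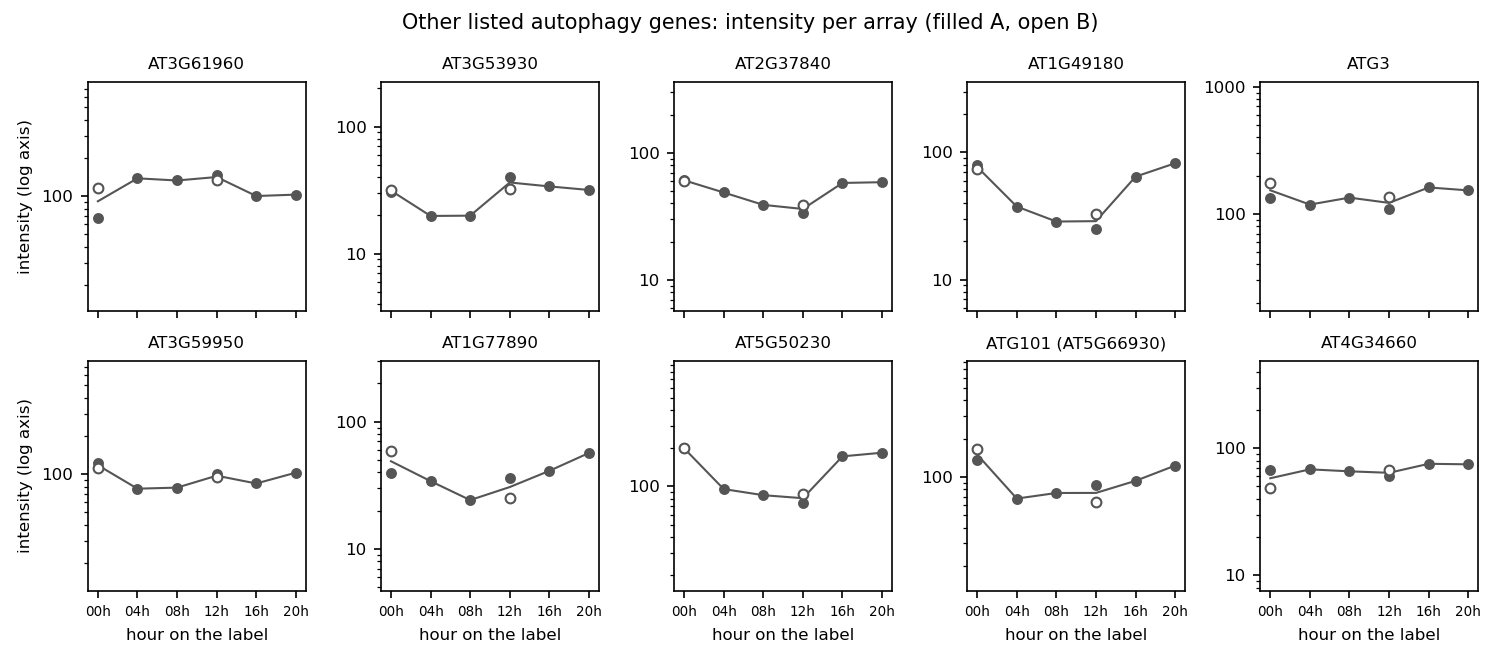
Intensity of the 10 tested genes of the list of other autophagy loci on each of the 8 arrays (log axis, the same span of folds in each panel) against the hour on the label, with filled points for arrays lettered A and open points for B. *AT5G50230* and *AT1G49180* lie lower from 04h to 12h than at the other hours, and *AT3G61960*, which did not pass, reads 132.9 to 147.9 there and 67.3 to 115.1 at the night-side hours.

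Autophagy is known to be switched on by the energy-sensing kinase SnRK1 and held back by the TOR kinase complex. Of 10 listed subunit genes of these kinases 5 were tested, and 1 was higher and 1 lower at the day-side hours, near the shares of all tested probe sets (23.3% higher and 20.1% lower). *AKINBETA1*, of a SnRK1 beta subunit, read 31.2 at 04h, 39.1 at 08h and 54.6 and 34.4 at 12h, against 941.8 at 16h, 1395.9 at 20h and 1806.3 and 1372.4 at 00h (-4.59 ± 0.181, limma adjusted p = 1.43e-07). *RAPTOR2*, of a TOR complex subunit, went the other way, with 38.9 to 52.8 on the day-side arrays and 16.2 to 25.5 on the night-side arrays (0.792 ± 0.165, limma adjusted p = 0.00328). Its night-side signals were dim, below the median intensity of every array (29.9 to 37.6). Its paralogue *RAPTOR1* (-0.278 ± 0.165) and the beta subunit genes *AT4G16360* (0.149 ± 0.16) and *AT2G28060* (-0.355 ± 0.158) did not pass. The listed genes *KIN10*, *KIN11* and *TOR* could not be matched to a probe set by name, and kinase activity was not measured.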

How the data were processed

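The deposited values are linear intensities, 1 for each probe set on each array, and MAS5 is named, with no version, per the submitters' processing notes. The deposited intensities have the same mean on every array after trimming 2% at each end, so differences in total mRNA between hours are not kept. Depth does not apply to arrays, and their number (8) limits the precision. The 64 control probe sets and the 40% with the lowest mean over all arrays were left out of 22810. Tests used log2(intensity + 16), R 4.3.3 with limma 3.58.1 (moderated by eBayes with an intensity trend) and Benjamini-Hochberg adjustment over 13648 probe sets. With the hour as a factor, 2 residual degrees of freedom come from 00h and 12h, and an hour with 1 array is assumed to vary like these. Leaving out 1 array of 00h or 12h leaves 1 residual degree of freedom, from 1 pair. A call can then change through the estimate of spread alone. Exact permutation tests and correlations used Python 3.11.15. The fits were tried on simulated data with the spread of the 00h and 12h pairs at every hour. Such data cannot test whether hours with 1 array vary like these pairs. Probe sets were named from the platform's gene table (1 gene for 13513, several for 503, none for 8730) and RefSeq TAIR10.1, which matched 13436.

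The *ATG8* genes, the lists and the tests were chosen with earlier results of these data known. Named genes are all *ATG8* probe sets, tested list members (each gene by its brightest probe set), and the 3 genes most like each *ATG8* gene. Alternatives were pseudocounts of 1 and 64, no filter, a 60% filter, scaling to 1 median, no intensity trend, 2 blocks, 2 groups of arrays, and leaving out arrays of 00h and 12h in turn. The comparison without both arrays with high hybridisation controls, and the values within pairs, were chosen after seeing the data. The labels do not say that a letter marks a shared batch or plant. The A arrays of 00h and 12h share high hybridisation controls, and with 2 pairs and a correlation of 0.295 the letters were not taken as a pairing. Promoter and protein sequences were not used here.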

Additional observations from a re-analysis of the deposited data

How the results depend on the processing

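The counts of *ATG8* genes lower at the day-side hours (6), lower at 12h against 00h (7), lower at 04h against 00h (6) and rhythmic (7) stayed within 1.5 times under each alternative run. The count higher at 16h against 12h, 2 as reported, was 1 without the filter, 5 with the letters as a replicate block, 4 with a block for the arrays with high hybridisation controls, and 2 to 4 when arrays were left out in turn. The count higher at 12h against 04h, 0 as reported, was 1 with the replicate block and 1 with the other block, and 0 to 1 when arrays were left out. The count higher at 00h against 16h, also 0, was 1 with the replicate block and 0 to 2 when arrays were left out. With the replicate block *ATG8F* (0.837), *ATG8C* (0.92) and *APG8A* (0.926) were also higher at 16h, *ATG8D* (1.18) at 12h against 04h and *ATG8F* (0.931) at 00h against 16h. The A minus B deviations at 00h and 12h correlated at 0.295 over probe sets, with 2 pairs only. Of 36 pairs 0 passed as reported and 21 with every array scaled to 1 median. This came from a change from 20 to 21 in the number of pairs at the smallest possible exact p.

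Estimates that changed direction all belong to calls that did not pass. For 12h against 00h *ATG8D* was 0.111 without the 00h B array, 0.0166 without the 12h B array and 0.279 within the A pair, and at the other end -0.414 without the 00h A array. For 16h against 12h *ATG8B* was -0.00852 with scaling to 1 median, -0.0488 with the block for the arrays with high hybridisation controls and -0.117 without the 12h B array (0.174 without 12h A), and *ATG8G* was 0.0222 without the 12h A array (-0.158 without 12h B). For 12h against 04h *ATG8F* was -0.194 with that block and -0.23 without the 12h A array (0.283 without 12h B), and *ATG8H* was 0.139 with that block. For 00h against 16h *ATG8H* was -0.133 without the 00h B array and 0.714 without the 00h A array. Over all probe sets the count for 04h against 00h was 3747, and 2272 without the filter. For 16h against 12h it was 1541, and 358 without the filter, 2812 with the replicate block and 2579 with the other block. For 12h against 04h it was 381, and 39, 1112 and 956 under the same settings, and 822 and 832 without either array of 00h. For 00h against 16h it was 576, and 14, 1759 and 1435, and 925 without either array of 12h. Dim probe sets such as *ATG8H* and *ATG8G* carry no detection calls here, and 5 to 52 probe sets an array are at 0. Apart from construction (more probe sets tested without the filter, fewer arrays), the cause of these shifts was not tested.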
